A study of Mus musculus with 8 samples.

Results

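The subject is 10 genes of cholesterol efflux, storage and LXR signalling in mouse peritoneal macrophages, listed by name for their known roles, with earlier results of these data known. They are Abca1, Abcg1, Apoe, Mylip, Scarb1, Npc1, Npc2, Nceh1, Lipa and Soat1, 10 of the 23735 loci in the expression table. All 10 were above the filter used for testing, which kept the 11272 loci that reached 1 RPKM in 2 or more libraries. RPKM scales reads to transcript length and to the mapped reads of a library, so levels of different genes can be compared on it.

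Macrophages take up cholesterol with lipoproteins, free it in the lysosome, store the surplus as cholesteryl ester in lipid droplets and export it to lipoproteins outside the cell. The liver X receptors (LXR), which are activated by oxysterols and bind DNA together with the retinoid X receptor, turn on exporters such as Abca1 and Abcg1 when sterol accumulates. MED1 is the Mediator subunit that nuclear receptors bind to reach RNA polymerase, and lipopolysaccharide (LPS) comes from the outer membrane of bacteria and acts through the receptor TLR4.

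RNA sequencing was done on macrophages of C57BL/6J mice aged 8 weeks, in 4 groups of 2 libraries marked A and B. The groups were MED1ΔMac cells given LPS at 50 ng/mL for 6 h, MED1fl/fl cells given the same LPS, untreated MED1ΔMac cells and untreated MED1fl/fl cells. MED1ΔMac is the macrophage knockout, also labelled MED1-/- and called KO-labelled here, and MED1fl/fl is the control, which carries the same floxed alleles and is called WT-labelled as in the sample names. Not given in the sources used here are the Cre driver, the exons removed and the meaning of the letters. Thus p-values measure changes against the spread between these libraries, which may be technical.

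The step between neighbouring low values put the depth at 6.97 to 14.34 M reads per library, with 10192 to 11027 loci at 1 RPKM or more. Of 9 macrophage marker symbols, 8 were found, all above 1 RPKM in every library. The symbol not found, Adgre1, is another name of Emr1, which was found. Med1 itself lay at 24.4 and 20.3 RPKM in KO-labelled cells with LPS and 24.7 and 21.6 RPKM in WT-labelled cells with LPS (libraries A and B). Without LPS it lay at 17.6 and 23.4 RPKM in KO-labelled cells and 21.7 and 24.8 RPKM in WT-labelled cells. Averaged over both treatments, its log2 difference between KO-labelled and WT-labelled cells was -0.12 (SE 0.15, limma adjusted p = 0.999). This whole-locus value therefore did not check the genotype, and every genotype difference below rests on the labels.

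The promoters of the 4 members called in any comparison below are shown first, because the textbook LXR element is a direct repeat of a hexamer with 4 bases between the copies (DR4). Each sequence is the 250 bases before a transcription start in RefSeq on GRCm38.p6, written 5′ to 3′ on the strand of the gene, and capitals mark the closest match to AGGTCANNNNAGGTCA on either strand (in Soat1, a pair of overlapping matches). The windows are chr4:53159896-53160145 on the minus strand for Abca1, chr3:27182754-27183003 on the plus strand for Nceh1, chr1:156474329-156474578 on the minus strand for Soat1 and chr19:34527475-34527724 on the minus strand for Lipa.
Abca1: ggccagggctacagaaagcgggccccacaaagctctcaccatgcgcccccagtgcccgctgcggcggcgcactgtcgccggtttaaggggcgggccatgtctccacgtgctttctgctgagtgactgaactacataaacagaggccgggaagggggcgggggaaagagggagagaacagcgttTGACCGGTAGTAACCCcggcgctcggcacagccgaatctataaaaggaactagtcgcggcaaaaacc
Nceh1: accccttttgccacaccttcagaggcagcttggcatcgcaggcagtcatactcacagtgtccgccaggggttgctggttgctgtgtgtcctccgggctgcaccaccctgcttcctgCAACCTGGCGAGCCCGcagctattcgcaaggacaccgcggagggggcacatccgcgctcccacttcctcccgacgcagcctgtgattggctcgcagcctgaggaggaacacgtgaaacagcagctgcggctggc
Soat1: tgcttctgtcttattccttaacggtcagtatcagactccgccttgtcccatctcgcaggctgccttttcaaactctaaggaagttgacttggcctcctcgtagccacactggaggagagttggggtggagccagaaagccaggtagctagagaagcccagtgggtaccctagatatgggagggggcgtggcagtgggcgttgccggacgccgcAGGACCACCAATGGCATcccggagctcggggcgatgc
Lipa: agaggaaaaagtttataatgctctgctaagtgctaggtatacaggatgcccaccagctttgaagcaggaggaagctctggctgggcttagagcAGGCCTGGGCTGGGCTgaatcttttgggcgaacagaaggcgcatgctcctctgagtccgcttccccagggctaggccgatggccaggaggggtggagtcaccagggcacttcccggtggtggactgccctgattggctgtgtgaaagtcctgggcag
The match in Abca1, whose exporter hands cholesterol to lipid-poor apolipoprotein A-I, differed from the motif at 3 of its 12 fixed letters and began 67 bases before the start. A DR4 element of this kind is known in the human ABCA1 promoter. The other matches differed at 4 letters in Soat1, 4 in Lipa and 5 in Nceh1. Of all 32851 promoter windows of this length, 18.5% held a match with at most 3 mismatches, 70.6% at most 4 and 99.5% at most 5. Of 9 windows of 7 members, 0 held the single hexamer AGGTCA, which 14% of all windows held, and 2, those of Abca1 and Nceh1, held the E-box CACGTG, found in 6.02% of windows. Abcg1, Scarb1 and Npc1 had no window, 3 of the 9 windows belong to Apoe, and bases outside the windows were not searched. These matches are descriptions of letters, and no binding was measured.

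In untreated cells the highest of the 10 genes was Apoe, which encodes a secreted apolipoprotein that accepts exported lipid. Its mean was 4450 ± 2690 RPKM in KO-labelled cells and 4290 ± 576 RPKM in WT-labelled cells (SD, n = 2 each), above 99.9% of the loci tested. Lipa, the lysosomal acid lipase, came next, followed by Npc2, the soluble lysosomal sterol carrier, and Soat1, the enzyme that makes cholesteryl ester. These 4 genes stood in the same order in both genotypes, and within a group the libraries of no neighbouring pair among them overlapped. The middle ranks, from Nceh1 down to Mylip, overlapped with their neighbours. With LPS, Nceh1 had the lowest mean of the 10 in both genotypes, at 8.16 ± 2.2 RPKM in KO-labelled cells and 7.29 ± 4.85 RPKM in WT-labelled cells (SD, n = 2 each). Its libraries overlapped with those of the next gene, Scarb1, in both.

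**Figure D1:**
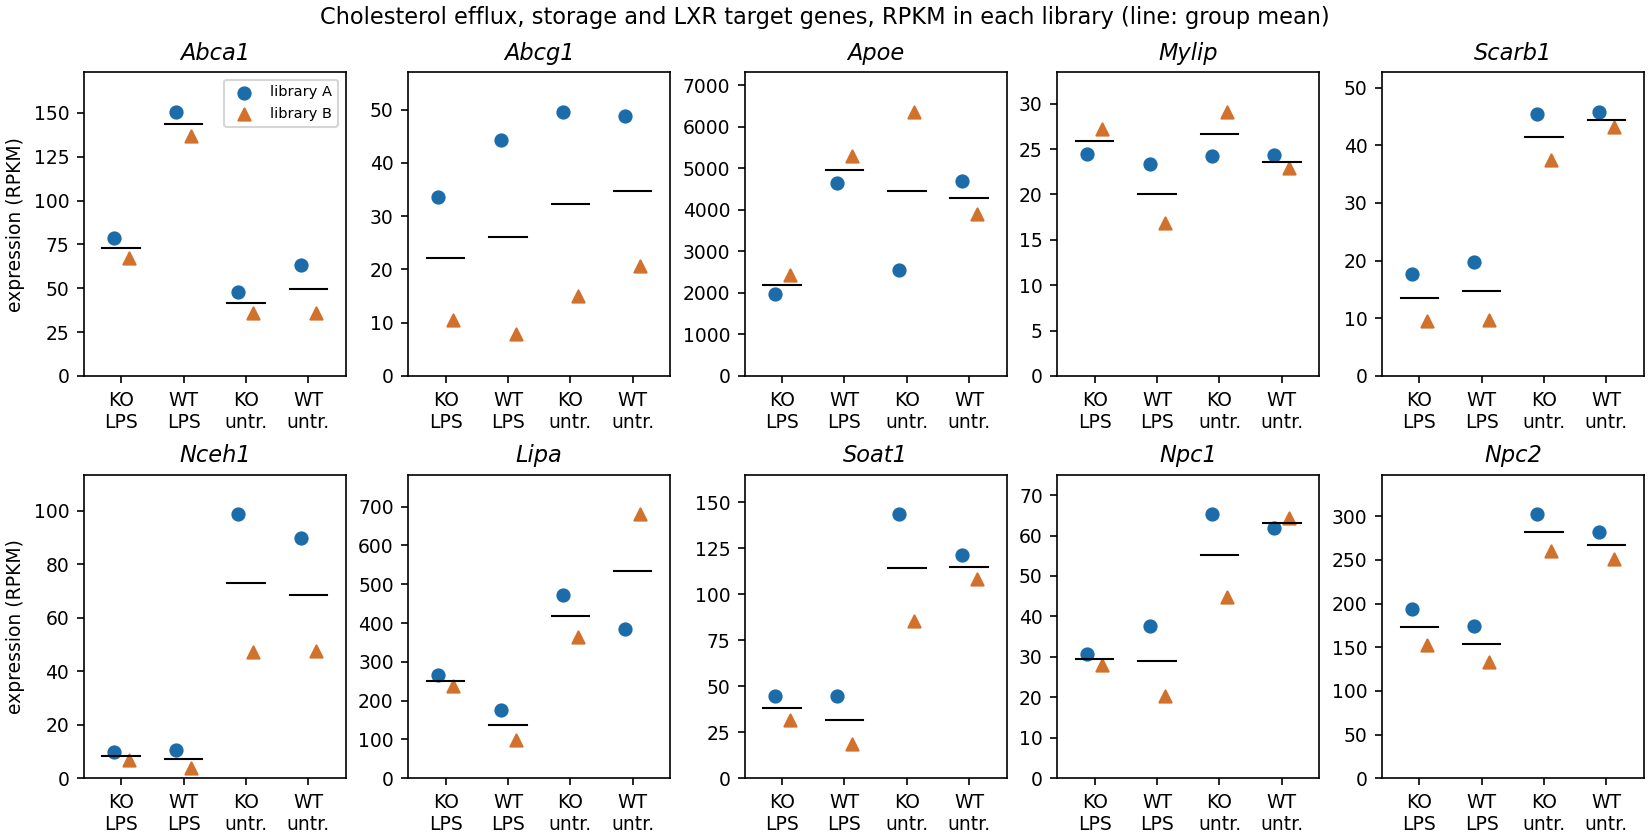
RPKM of each of the 10 genes (vertical axes from 0, own scale per panel) in the 4 groups, with circles for library A, triangles for library B and lines for group means. Nceh1, Soat1 and Scarb1 sit low in all 4 LPS libraries, Abca1 is highest in WT-labelled cells with LPS, and Abcg1 is higher in library A than in library B of every group.

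In KO-labelled cells LPS lowered the ester hydrolase Nceh1 to 0.112 of its untreated mean, and the other 9 genes did not pass. In WT-labelled cells LPS raised the exporter Abca1 2.89-fold and lowered 3 enzymes of ester storage and release, Nceh1 to 0.106, Lipa to 0.258 and Soat1 to 0.277 of the untreated mean. The threshold for a call was an adjusted p (Benjamini-Hochberg) under 0.05 in limma, fitted on log2(RPKM + 1) over all 8 libraries and adjusted over all 11272 loci, and log2 values below are on that scale, which understates changes of low genes. In KO-labelled cells 0 of the 10 genes were called higher, where 3.31% of all loci were, and 1 was called lower, where again 3.31% were. At an unadjusted p under 0.05, 1 was higher (8.06% of loci) and 5 were lower (21.1% of loci). In WT-labelled cells 1 was called higher, where 3.17% of loci were, and 3 lower, where 3.14% were. There, 1 was higher (8.59% of loci) and 6 were lower (20.7% of loci) at an unadjusted p under 0.05. With the letter as a block, 1 gene was called higher (5.25% of loci) and 4 lower (9.04% of loci) in KO-labelled cells, and 1 higher (5.71% of loci) and 6 lower (10.4% of loci) in WT-labelled cells.

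Without regard to calls, the LPS libraries lay wholly above the untreated ones for 1 gene in KO-labelled cells (15.1% of loci) and wholly below them for 7 (48.0% of loci). In WT-labelled cells these numbers were 1 (18.2% of loci) and 6 (45.9% of loci). The median log2 change of the 10 genes was -0.79 in KO-labelled cells and -0.98 in WT-labelled cells, against -0.28 and -0.25 for all loci tested. Median-ratio scaling brought the medians of all loci to -0.02 and 0.00, so changes can be read relative to these shifts. Under that scaling the 5 calls held, and Mylip changed sign. In bulk libraries, fewer cells of a type and less RNA per cell cannot be told apart. Of 5 neutrophil markers 4 were found, and their sum was 9.83 and 12 RPKM in KO-labelled cells with LPS, against 0 and 2.55 RPKM untreated, and 13.0 and 27.5 RPKM in WT-labelled cells with LPS, against 0 and 3.72 RPKM untreated. The LPS values came from Camp alone, with Ngp, Mpo and Elane at 0, and their part in the LPS changes was not tested.

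**Figure D2:**
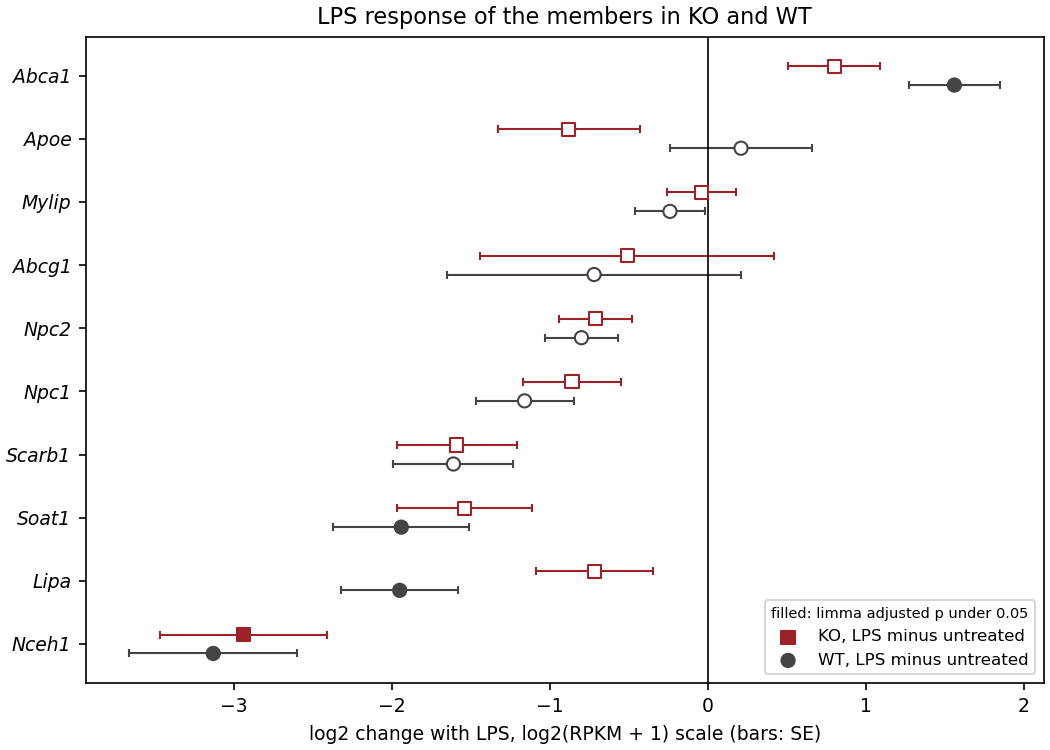
Log2 change with LPS (horizontal axis, log2(RPKM + 1) scale) of each gene in KO-labelled cells (squares, upper) and WT-labelled cells (circles, lower), with bars for the SE and filled symbols for calls. Nceh1 lies near -3 in both genotypes, Abca1 is the gene to the right of 0 in both, and the widest bars belong to Abcg1 (SE 0.93).

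Among the exporters, Abca1 (locus XLOC_014811, mm9 chromosome 4, 53043659 to 53172767, minus strand) had 78.6 and 67.0 RPKM in KO-labelled cells with LPS, against 47.6 and 35.6 RPKM untreated. In WT-labelled cells it had 150.6 and 137.0 RPKM with LPS, against 63.4 and 36.1 RPKM untreated. The LPS libraries lay above the untreated ones in both genotypes. The log2 change was 0.80 in KO-labelled cells (SE 0.29, limma adjusted p = 0.128, and 0.0459 with the letter as a block) and 1.56 in WT-labelled cells (SE 0.29, adjusted p = 0.0285).

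Abcg1, the transporter that passes cholesterol on to mature HDL particles, was not called. It had 33.7 and 10.5 RPKM in KO-labelled cells with LPS, against 49.6 and 15 RPKM untreated, and 44.3 and 7.82 RPKM in WT-labelled cells with LPS, against 48.9 and 20.7 RPKM untreated. The groups overlapped, while within each letter of each genotype the LPS library was the lower, by log2 differences of -0.54 (A) and -0.48 (B) in KO-labelled and -0.14 (A) and -1.30 (B) in WT-labelled cells. The log2 change was -0.51 in KO-labelled cells (adjusted p = 0.732) and -0.72 in WT-labelled cells (adjusted p = 0.632), with an SE of 0.93 in each. With the letter as a block the SE was 0.28, and the adjusted p was 0.233 in KO-labelled and 0.119 in WT-labelled cells. Within a library the ratio of Abca1 to Abcg1 was 2.33 and 6.37 in KO-labelled cells with LPS, against 0.961 and 2.37 untreated, and 3.40 and 17.5 in WT-labelled cells with LPS, against 1.30 and 1.75 untreated. It was higher with LPS in both letters of both genotypes.

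Apoe had 1968 and 2431 RPKM in KO-labelled cells with LPS, against 2547 and 6358 RPKM untreated, and 4638 and 5284 RPKM in WT-labelled cells with LPS, against 4702 and 3887 RPKM untreated. One untreated KO-labelled library, B, stood far above the other, and the LPS libraries lay below the untreated ones in KO-labelled but not in WT-labelled cells. The log2 change was -0.88 in KO-labelled cells (SE 0.45, adjusted p = 0.236) and 0.21 in WT-labelled cells (SE 0.45, adjusted p = 0.781). In KO-labelled cells it was -0.22 without untreated library B and -1.54 without untreated library A. The summed B cell markers were 1600 RPKM in untreated KO B and 539 RPKM in untreated KO A. In the same order, mast cell markers summed to 162 and 0.197 RPKM, and T and NK cell markers to 30.4 and 2.58 RPKM. Macrophage markers summed to 17900 and 11300 RPKM, and without the lysozyme gene Lyz2 to 2930 and 2830 RPKM. The part of these cells in this spread was not tested.

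Scarb1, the HDL receptor SR-BI that moves cholesterol in either direction across the plasma membrane, had 17.7 and 9.50 RPKM in KO-labelled cells with LPS, against 45.5 and 37.4 RPKM untreated. In WT-labelled cells it had 19.8 and 9.67 RPKM with LPS, against 45.8 and 43.1 RPKM untreated. All 4 LPS libraries lay below all 4 untreated ones. The log2 change missed the threshold, at -1.59 in KO-labelled cells (SE 0.38, adjusted p = 0.0518, and 0.0115 with the letter as a block) and -1.61 in WT-labelled cells (SE 0.38, adjusted p = 0.0511, and 0.0102 with the block).

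Mylip, the LXR-induced ubiquitin ligase that sends the LDL receptor to degradation, was the steadiest of the 10. Its 8 libraries ran between 16.9 and 29.1 RPKM. The log2 change was -0.04 in KO-labelled cells (SE 0.22, 95% interval -0.54 to 0.46, adjusted p = 0.914) and -0.24 in WT-labelled cells (SE 0.22, 95% interval -0.74 to 0.27, adjusted p = 0.49), and with median-ratio scaling it was 0.26 and 0.04.

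The largest LPS change of the 10 was in cholesteryl ester turnover. Nceh1 (XLOC_012881, mm9 chromosome 3, 27081887 to 27183530, plus strand) encodes a hydrolase that frees cholesterol from stored ester. It had 9.72 and 6.61 RPKM in KO-labelled cells with LPS, against 98.7 and 47.3 RPKM untreated, and 10.7 and 3.86 RPKM in WT-labelled cells with LPS, against 89.6 and 47.5 RPKM untreated. Every LPS library was below every untreated library, with a wide gap. LPS changed Nceh1 by log2 -2.94 in KO-labelled cells (SE 0.53, adjusted p = 0.0267) and -3.13 in WT-labelled cells (SE 0.53, adjusted p = 0.0236).

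Soat1 (XLOC_001110, mm9 chromosome 1, 158358239 to 158404459, minus strand), which works in the opposite direction, had 44.5 and 31.5 RPKM in KO-labelled cells with LPS, against 143.6 and 85.2 RPKM untreated. In WT-labelled cells it had 44.8 and 18.8 RPKM with LPS, against 121.2 and 108.2 RPKM untreated. All LPS libraries again lay below all untreated ones. LPS changed Soat1 by log2 -1.54 in KO-labelled cells (SE 0.43, adjusted p = 0.0724, and 0.0131 with the letter as a block) and -1.94 in WT-labelled cells (SE 0.43, adjusted p = 0.0433). Within a library the ratio of Soat1 to Nceh1 was 4.58 and 4.77 in KO-labelled cells with LPS, against 1.45 and 1.80 untreated, and 4.18 and 4.88 in WT-labelled cells with LPS, against 1.35 and 2.28 untreated. The LPS ratios lay above all untreated ratios and overlapped between genotypes.

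Lipa (XLOC_010693, mm9 chromosome 19, 34566808 to 34601964, minus strand), which splits lipoprotein cholesteryl ester in the lysosome, had 266.0 and 236.7 RPKM in KO-labelled cells with LPS, against 471.5 and 364.1 RPKM untreated. In WT-labelled cells it had 177.0 and 98.5 RPKM with LPS, against 385.0 and 680.9 RPKM untreated. The LPS libraries were below the untreated ones in each genotype. LPS changed Lipa by log2 -0.72 in KO-labelled cells (SE 0.37, adjusted p = 0.236) and -1.95 in WT-labelled cells (SE 0.37, adjusted p = 0.0304).

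Npc1 and Npc2 together move freed cholesterol out of the lysosome. Npc2 had 193.6 and 152.0 RPKM in KO-labelled cells with LPS, against 302.4 and 260.6 RPKM untreated, and 173.8 and 132.9 RPKM in WT-labelled cells with LPS, against 282.4 and 250.6 RPKM untreated. Npc1 had 30.8 and 27.9 RPKM in KO-labelled cells with LPS, against 65.3 and 44.9 RPKM untreated, and 37.6 and 20.4 RPKM in WT-labelled cells with LPS, against 61.8 and 64.4 RPKM untreated. For both genes the LPS libraries lay below the untreated ones. The log2 change of Npc2 was -0.71 in KO-labelled cells (adjusted p = 0.106, and 0.0403 with the letter as a block) and -0.80 in WT-labelled cells (adjusted p = 0.0803, and 0.0261 with the block), with an SE of 0.23. That of Npc1 was -0.86 in KO-labelled cells (adjusted p = 0.125) and -1.16 in WT-labelled cells (adjusted p = 0.0673, and 0.0243 with the block), with an SE of 0.31. Exons of Npc1 overlap genes on the opposite strand, and whether reads were counted by strand is not given in the sources used here; thus its value is uncertain.

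The calls rested on few libraries. In WT-labelled cells Abca1, Lipa and Soat1 lost their call when any of KO LPS A, KO LPS B, WT LPS B or either untreated WT library was left out, although the fold is from WT libraries alone, since the 4 groups share an estimate of the spread. Without 1 library at a time the log2 change of Abca1 ran between 1.17 and 1.96 (adjusted p up to 0.138), that of Lipa between -2.37 and -1.53 (up to 0.175) and that of Soat1 between -2.54 and -1.33 (up to 0.207). Nceh1 in WT-labelled cells lost its call when WT LPS B or either untreated WT library was left out (-3.77 to -2.50, adjusted p up to 0.143). In KO-labelled cells it lost it without any 1 of the 4 KO libraries (-3.47 to -2.42, adjusted p up to 0.19). No direction changed for these 4 genes, and testing all loci without the filter ended the 5 calls (adjusted p between 0.0548 and 0.0835).

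The difference between genotypes was asked of the untreated cells, of the LPS-treated cells, of both together and of the LPS response itself. In untreated cells limma called 0 of the 10 genes, where 0.0266% of all loci were called, and 0 had an unadjusted p under 0.05, as 0.834% of loci had. Their log2 differences, KO minus WT, ran between -0.30 for Lipa and 0.17 for Mylip, with a median of -0.10 against 0.07 for all loci. The 95% interval was -0.90 to 0.47 for Abca1 and -1.15 to 0.98 for Apoe. These are intervals of single genes without adjustment over all loci, so they do not mark the smallest difference that could be called. A missing call does not show equal levels.

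With LPS, Abca1 and Apoe had lower values in KO-labelled cells, and Lipa and Mylip higher ones, but limma called 0 of the 10, where 0.00887% of loci were called. The 2 libraries of each genotype did not overlap for these 4 genes, 2 lower and 2 higher, where 11.7% of loci were wholly lower and 18.7% wholly higher. Abca1 averaged 72.8 ± 8.19 RPKM in KO-labelled cells and 144 ± 9.59 RPKM in WT-labelled cells (SD, n = 2 each). The log2 difference was -0.97 (SE 0.29, 95% interval -1.66 to -0.29), with an unadjusted limma p of 0.0119 and an adjusted p of 0.989.

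Apoe averaged 2200 ± 328 RPKM in KO-labelled cells with LPS and 4960 ± 457 RPKM in WT-labelled cells with LPS (SD, n = 2 each). The log2 difference was -1.18 (SE 0.45, 95% interval -2.24 to -0.11), with an unadjusted limma p of 0.0344 and an adjusted p of 1. Lipa averaged 251 ± 20.7 RPKM in KO-labelled cells with LPS and 138 ± 55.5 RPKM in WT-labelled cells with LPS. The log2 difference was 0.92 (SE 0.37, 95% interval 0.05 to 1.79), with an unadjusted limma p of 0.0413 and an adjusted p of 1. These were the 3 of the 10 genes with an unadjusted p under 0.05, which 4.42% of loci had. Mylip differed by 0.36 (SE 0.22, adjusted p = 1). Without 1 library at a time the difference of Abca1 stayed between -1.09 and -0.86, that of Apoe between -1.33 and -1.03 and that of Lipa between 0.50 and 1.34. The other 6 genes had differences between -0.09 for Scarb1 and 0.35 for Soat1. With the letter as a block the SE was 0.21 for Abca1, 0.42 for Apoe and 0.37 for Lipa. None of these was then called (limma adjusted p of 0.454, 0.666 and 0.718).

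**Figure D3:**
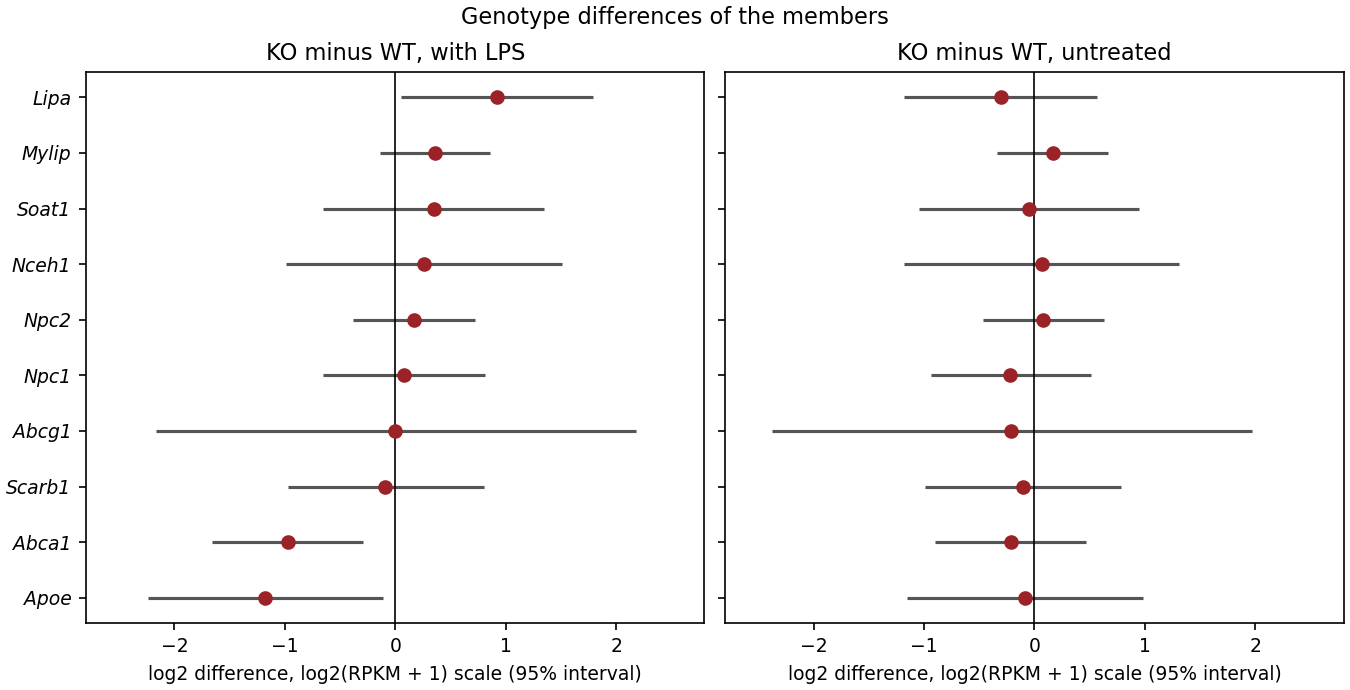
KO minus WT log2 difference (horizontal axes, log2(RPKM + 1) scale) of each gene with LPS (left) and untreated (right), with points for the estimate and lines for the 95% interval of a single gene. With LPS the intervals of Abca1, Apoe and Lipa lie to 1 side of 0, and none of the 10 genes passed adjustment over all loci (adjusted p of 0.989 or more).

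Averaged over both treatments, limma called 0 of the 10 genes (0.0355% of loci), and 1, Abca1, had an unadjusted p under 0.05 (4.19% of loci). Its difference was -0.59 (SE 0.21, adjusted p = 0.999), and that of Apoe was -0.63 (SE 0.32, adjusted p = 0.999). The interaction, which is the LPS response of KO-labelled cells minus that of WT-labelled cells, was called by limma for 0 of the 10 (0.0355% of loci), with 0 at an unadjusted p under 0.05 (1.63% of loci). It was -0.76 for Abca1 (SE 0.42, 95% interval -1.73 to 0.21), -1.09 for Apoe (SE 0.64) and 1.23 for Lipa (SE 0.53, 95% interval -0.01 to 2.46, unadjusted p = 0.0513), each with an adjusted p of 1. For Scarb1 it was 0.02, with a 95% interval of -1.24 to 1.27. With the letter as a block the SE of the interaction was 0.29 for Abca1, 0.59 for Apoe and 0.52 for Lipa. Limma still called 0 of the 10. A call in WT-labelled cells alone is thus not shown to be a difference between genotypes. Abca1, Lipa and Soat1 had such a call without the letter as a block. With the block, limma also called Abca1 (adjusted p = 0.0459) and Soat1 (adjusted p = 0.0131) in KO-labelled cells, but not Lipa (adjusted p = 0.207).

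Markers of other cells moved with genotype in the LPS libraries. The summed RPKM of 5 B cell markers was 1340 and 928 in KO-labelled cells with LPS and 580 and 381 in WT-labelled cells with LPS, with all 5 above 1 RPKM throughout. In untreated cells it was 539 and 1600 in KO-labelled libraries and 593 and 520 in WT-labelled ones. The 8 macrophage markers, led by the lysozyme gene Lyz2, summed to 7180 and 6180 RPKM in KO-labelled cells with LPS and 19600 and 15000 RPKM in WT-labelled cells with LPS. Untreated, they summed to 11300 and 17900 RPKM in KO-labelled cells and 31700 and 35300 RPKM in WT-labelled cells. Most of these sums and of the gap between genotypes was Lyz2, at 5110 and 4550 RPKM in KO-labelled cells with LPS and 17300 and 13200 RPKM in WT-labelled cells with LPS. The other 7 summed to 2070 and 1630 RPKM in KO-labelled cells with LPS and 2260 and 1740 RPKM in WT-labelled cells with LPS, and untreated to 2830 and 2930 RPKM in KO-labelled and 3080 and 3030 RPKM in WT-labelled cells. Among those 7, with LPS, Csf1r, Itgam, Mertk and Gata6 lay wholly lower in KO-labelled cells, Emr1 and Icam2 wholly higher, and Cd68 overlapped. Of 4 mesothelial markers, each stayed under 1 RPKM in every library. The 2 erythroid markers found summed to 48.0 RPKM in untreated WT B and to 0.21 RPKM or less in every other library. Their part in the results was not tested. The part of B cells in the genotype differences of Abca1, Apoe and Lipa was not tested.

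The letters separated Abcg1 more than genotype or treatment did. Its library A minus library B difference was 1.59 in KO-labelled cells with LPS, 2.36 in WT-labelled cells with LPS, 1.66 in untreated KO-labelled cells and 1.2 in untreated WT-labelled cells, on the log2(RPKM + 1) scale. The mean, 1.70, ranked 83 by size among 11272 loci, and 0.248% of loci were at least as high. Across groups Abcg1 thus ran between 33.7 and 49.6 RPKM in the A libraries and between 7.82 and 20.7 RPKM in the B libraries. The mean difference was 0.93 for Nceh1, 0.65 for Soat1 and 0.54 for Scarb1, while the middle 95% of loci ran between -0.82 and 0.76. In all, 6 of the 10 genes were higher in library A in each of the 4 groups, as were 18.2% of loci.

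**Figure D4:**
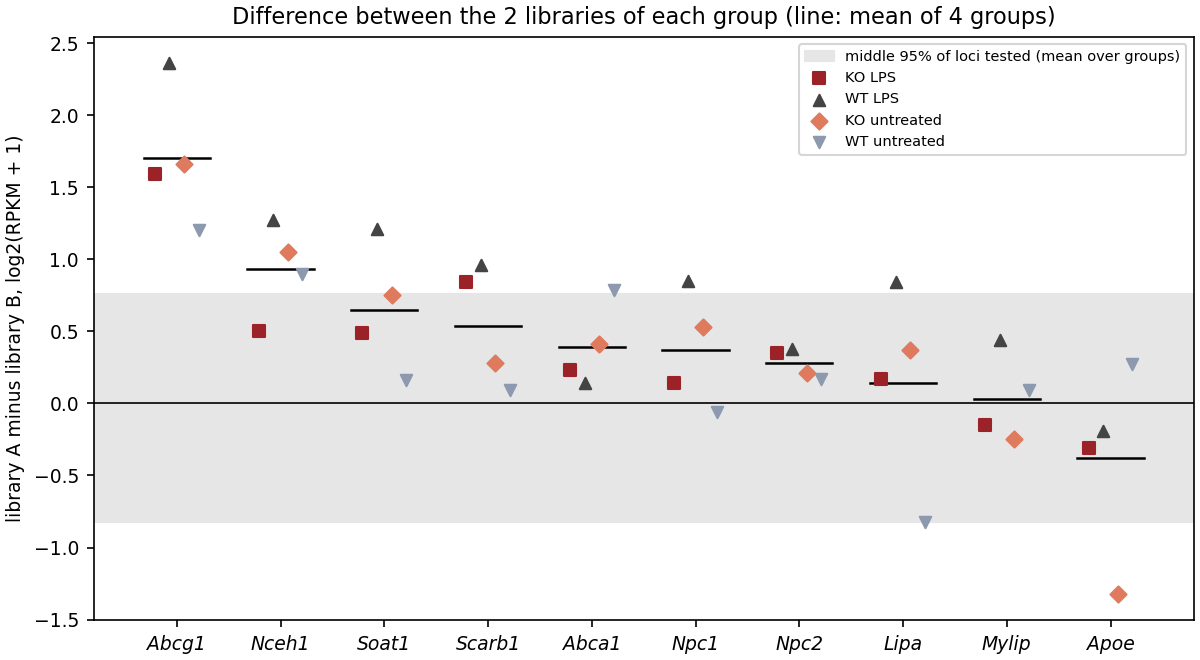
Difference between library A and library B (vertical axis, log2(RPKM + 1)) in each of the 4 groups, by gene, with lines for the mean of the groups and a grey band for the middle 95% of tested loci. Abcg1 has the highest mean, 1.70, with all 4 groups above 1, and Nceh1 at 0.93 is also above the band.

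Mast cell markers also followed the letters. The 4 markers summed to 2.95 RPKM in A and 65.1 in B of KO-labelled cells with LPS, 23.5 and 83.0 in WT-labelled cells with LPS, 0.197 and 162 in untreated KO-labelled cells and 0.689 and 70.0 in untreated WT-labelled cells. Library B was higher in all 4 groups, the opposite of Abcg1. The 5 T and NK cell markers also summed higher in B than in A, at 3.49 RPKM in A and 13.5 in B of KO-labelled cells with LPS, 2.71 and 5.69 in WT-labelled cells with LPS, 2.58 and 30.4 in untreated KO-labelled cells and 5.13 and 10.8 in untreated WT-labelled cells. The part of these cells in the letter difference of Abcg1 was not tested.

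By the measure of likeness used here, the Pearson correlation of log2(RPKM + 1) over the 8 libraries, the nearest of 7594 named loci are given for the 4 called genes as a description only, since libraries share treatment and letter. Nceh1 was most like Daglb (0.997), Pdxk (0.996) and Slc37a2 (0.996), and Soat1 most like Myo5a (0.996), Coq10a (0.996) and Wdr7 (0.995). Lipa was most like Creg1 (0.988), Gaa (0.985) and Itfg3 (0.977). Abca1 was most like Med21 (0.977), Msr1 (0.974) and Stk38l (0.971).

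Around these genes, 7 lists hold 51 other genes of sterol handling, of which 48 were above the filter. In KO-labelled cells LPS raised 4 of the 48 and lowered 6, where 3.31% of all loci passed in each direction, with a median log2 change of -0.50 against -0.28 for all loci. In WT-labelled cells it raised 3 (3.17% of loci) and lowered 2 (3.14% of loci), with a median of -0.48 against -0.25. With the letter as a block it raised 5 (5.25% of loci) and lowered 11 (9.04% of loci) in KO-labelled cells. In WT-labelled cells it then raised 6 (5.71% of loci) and lowered 8 (10.4% of loci). Limma called 0 of the 48 in each of the 4 genotype and interaction comparisons, with 0 at an unadjusted p under 0.05 in untreated cells (0.834% of loci), 5 with LPS (4.42%), 3 averaged over treatments (4.19%) and 1 in the interaction (1.63%).

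Neither LXR gene passed in either genotype. The LXRβ gene Nr1h2 lay between 47.9 and 51.8 RPKM in all 8 libraries. The LXRα gene Nr1h3 had 12.2 and 4.37 RPKM in KO-labelled cells with LPS, against 18.5 and 10.8 RPKM untreated, and 18.3 and 2.25 RPKM in WT-labelled cells with LPS, against 19.2 and 9.12 RPKM untreated. Its A library was the higher in each group, and its log2 change was -0.85 in both genotypes (SE 0.83, adjusted p = 0.509 in KO-labelled and 0.521 in WT-labelled cells). Rxra, the partner receptor RXRα, fell in KO-labelled cells by 1.21 on the log2 scale (adjusted p = 0.0394) and had a change of -1.09 in WT-labelled cells (adjusted p = 0.0516, and 0.0135 with the letter as a block). In the list of 6 receptors and partners, 1 fell in KO-labelled cells in limma (3.31% of loci). In WT-labelled cells 0 passed (3.17% of loci rose and 3.14% fell). There, 2 had lower values at an unadjusted limma p under 0.05 (20.7% of loci), and 1 fell with the block (10.4% of loci).

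Among 13 other LXR targets, 2 fell in KO-labelled cells in limma (3.31% of loci). In WT-labelled cells 0 passed (3.17% of loci rose and 3.14% fell). There, 3 had lower values at an unadjusted limma p under 0.05 (20.7% of loci). Lower values were found for 11 of the 13 in each genotype, and for 72.0% of all loci in KO-labelled and 68.7% in WT-labelled cells. The efferocytosis receptor Mertk, also on the list of macrophage markers, changed by -1.49 in KO-labelled cells (adjusted p = 0.0283) and by -0.56 in WT-labelled cells (adjusted p = 0.221). The phosphodiesterase Smpdl3a changed by -1.35 in KO-labelled cells (adjusted p = 0.045) and by -0.88 in WT-labelled cells (adjusted p = 0.113). Srebf1, which drives fatty acid synthesis, stayed between 18.6 and 25.8 RPKM, and the phospholipid-remodelling Lpcat3 between 17.1 and 26.6 RPKM, in all 8 libraries. Their log2 changes in KO-labelled cells were 0.03 for Srebf1 and -0.24 for Lpcat3, and in WT-labelled cells -0.09 for Srebf1 and -0.13 for Lpcat3. With median-ratio scaling the sign turned for Srebf1 in WT-labelled cells (0.19) and for Lpcat3 in both genotypes (0.05 in KO-labelled and 0.15 in WT-labelled cells).

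Of 3 genes that make or break down oxysterols, 2 rose (3.31% of loci) and 1 fell (3.31% of loci) in KO-labelled cells. In WT-labelled cells 1 rose (3.17% of loci) and 1 fell (3.14% of loci). Ch25h, the cholesterol 25-hydroxylase, had 11 and 6.42 RPKM in KO-labelled cells with LPS, against 0.444 and 0.631 RPKM untreated, and 10.9 and 37.6 RPKM in WT-labelled cells with LPS, against 0.632 and 0.227 RPKM untreated. All LPS libraries were above all untreated ones. It rose by log2 2.62 in KO-labelled cells (SE 0.53, adjusted p = 0.035) and 3.92 in WT-labelled cells (SE 0.53, adjusted p = 0.0151). Cyp27a1, the sterol 27-hydroxylase, changed the other way, by -2.73 in KO-labelled cells (adjusted p = 0.0171) and -2.43 in WT-labelled cells (adjusted p = 0.0236). Cyp7b1, which hydroxylates both products onward, changed by 1.32 in KO-labelled cells (adjusted p = 0.041) and 1.18 in WT-labelled cells (adjusted p = 0.0548, and 0.0262 with the letter as a block).

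Soat1 had lower values with LPS, whereas another gene for an esterifying enzyme rose in both genotypes. Soat2 had 7.70 and 11.2 RPKM in KO-labelled cells with LPS, against 1.79 and 1.89 RPKM untreated, and 15.7 and 15.7 RPKM in WT-labelled cells with LPS, against 2.32 and 2.17 RPKM untreated. It rose by log2 1.86 in KO-labelled cells (adjusted p = 0.0107) and 2.36 in WT-labelled cells (adjusted p = 0.00662), yet stayed below Soat1 in every library. The oxidised-LDL receptor Olr1 rose by 3.07 in KO-labelled cells (adjusted p = 0.0161) and 2.81 in WT-labelled cells (adjusted p = 0.0217). The lysosomal membrane protein gene Scarb2 fell by 1.13 in KO-labelled cells (adjusted p = 0.0234) and by 0.84 in WT-labelled cells (adjusted p = 0.0481). Soat2, Olr1 and Scarb2 were the only genes to pass, without the block, in the lists of 5 lipid droplet, 5 lipoprotein uptake and 11 sterol transport genes tested. Over all loci, 3.31% passed in each direction in KO-labelled cells, and 3.17% rose and 3.14% fell in WT-labelled cells. Of 5 other lipid transporters of the ABC family, 1 fell in KO-labelled cells in limma (3.31% of loci). In WT-labelled cells 0 passed (3.17% of loci rose and 3.14% fell). There, 4 had lower values at an unadjusted limma p under 0.05 (20.7% of loci). The gene called in KO-labelled cells, Abca9, changed by -2.62 there (adjusted p = 0.0414) and by -1.89 in WT-labelled cells (adjusted p = 0.0853). In KO-labelled cells Abca9 had 3.69 and 2.22 RPKM with LPS, against 11.1 and 46.0 RPKM untreated. Without 1 library at a time its change there ran between -3.6 and -1.64.

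**Figure D5:**
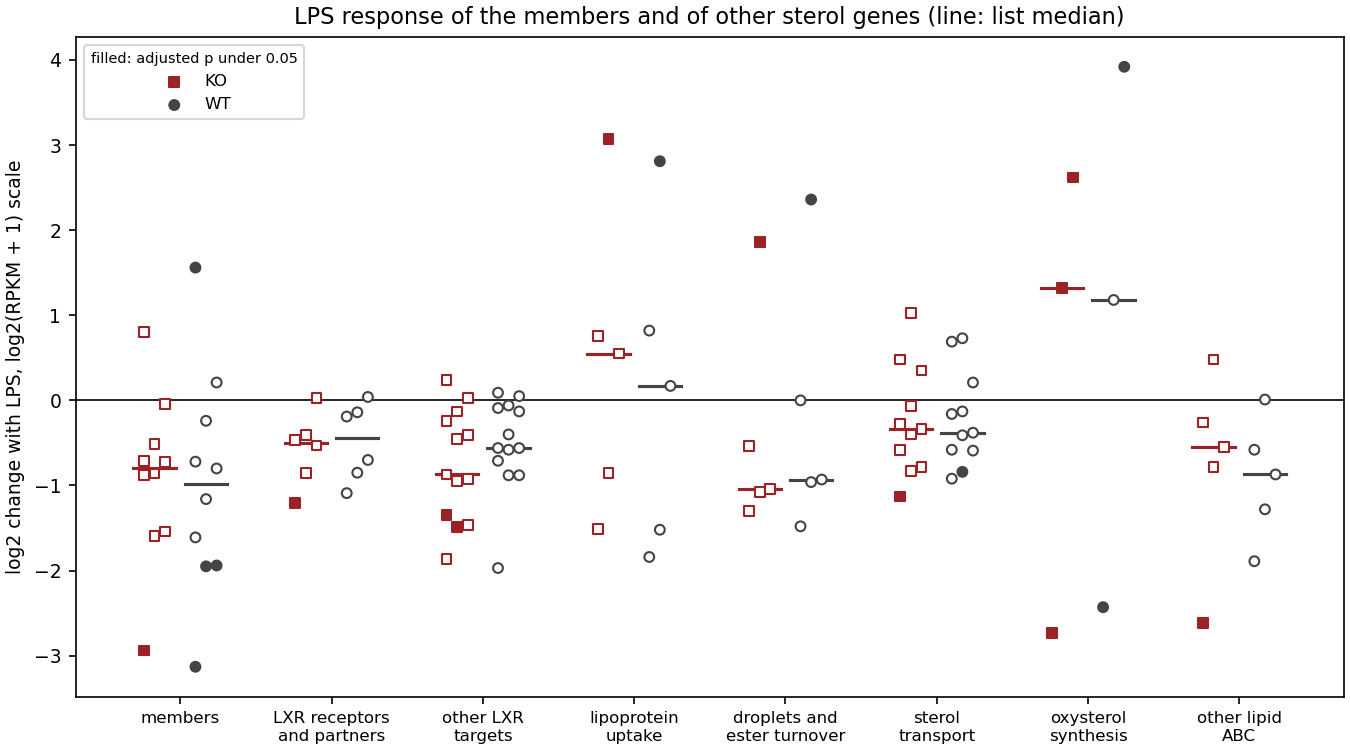
Log2 change with LPS (vertical axis, log2(RPKM + 1) scale) of the 10 genes (leftmost, members) and of the 7 other lists, with squares for KO-labelled cells left of circles for WT-labelled cells, lines for medians and filled symbols for calls. Ch25h at 3.92 and Olr1 at 3.07 are the highest points, and Nceh1 at -3.13 is the lowest.

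These 15 calls among other sterol genes also rested on single libraries. Without KO LPS A 10 were lost, without KO LPS B 11, without WT LPS A 0, without WT LPS B 4, without KO untreated A 7, without KO untreated B 11, without WT untreated A 11 and without WT untreated B 9. The adjusted p then reached 0.149 for Ch25h in KO-labelled and 0.0834 in WT-labelled cells, 0.105 and 0.0681 for Soat2, 0.105 and 0.128 for Olr1, 0.124 and 0.139 for Cyp27a1, and 0.203 and 0.22 for Scarb2. In KO-labelled cells alone it reached 0.28 for Cyp7b1, 0.254 for Rxra, 0.18 for Mertk, 0.268 for Smpdl3a and 0.254 for Abca9. Median-ratio scaling ended 5 of the 15, and testing without the filter ended 9.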

How the data were processed

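Peritoneal macrophage RNA was sequenced in 8 libraries, 4 groups of 2. Per the submitters' processing notes, reads were handled with bcl2fastq, TopHat2 2.0.14 and Cufflinks 2.2.1 on mm9. The authors deposited RPKM values in 1 table of 24192 lines, which hold 23735 loci because some lines repeat a locus under another symbol. No read counts are given. Depth was estimated from steps between low values (of 2572 low loci, 81.8% had only whole multiples of 1 step, within 0.1 read plus 0.02 per read) and scaled with 606 genes of 1 transcript. A lower depth widens the error of low values.

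Loci that reached 1 RPKM in 2 or more libraries were tested as log2(RPKM + 1) in R 4.3.3 with limma 3.58.1, with 1 mean per group over 8 libraries, variances moderated along a trend, two-sided tests and Benjamini-Hochberg adjustment. The fit was also run on simulated data with a capped spread and no letter effect, which does not check it for noisier libraries paired by letter. The 6 contrasts were LPS in each genotype, KO minus WT in each treatment and averaged, and the interaction. Other named genes are those of the 7 lists called in any contrast, plus Nr1h2, Nr1h3, Srebf1, Lpcat3 and Ch25h. The members and lists were chosen with earlier results of these data known.

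The labels give the same letters A and B in each group. Deviations from group means correlated by letter in all 6 pairs of groups (r 0.20 to 0.41 over loci), so the letters were taken to pair libraries, and the blocked p stands beside a named result where it changed the call. Gene positions are from GENCODE on mm9, and promoters from RefSeq on GRCm38.p6, matched by symbol for 7 members. Tables and figures used Python 3.11.15, numpy 2.4.6, pandas 2.3.3 and matplotlib 3.10.9. Alternatives were a pseudocount of 0.1, no filter, a filter at 5 RPKM, median-ratio scaling, quantile normalization, the letter as a block, no variance trend and leaving out each library.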

Additional observations from a re-analysis of the deposited data

How the results depend on the processing

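Of the 10 genes, 4 were called with LPS in WT-labelled cells and 1 in KO-labelled cells. In KO-labelled cells the count was 0 without the filter, 2 with a filter at 5 RPKM, 2 with quantile normalization, 5 with the letter as a replicate block and 0 to 3 when 1 library was left out. In WT-labelled cells it was 0 without the filter, 7 with the replicate block and 0 to 7 when 1 library was left out. For WT-labelled cells the count was also 5 with a filter at 5 RPKM and 6 with quantile normalization. A pseudocount of 0.1, median-ratio scaling and no variance trend left both counts within 1.5 times. The calls over all loci moved too. In KO-labelled cells they were 746 in the main fit, 262 without the filter and 700 with the filter at 5 RPKM. With quantile normalization they were 894, and with the block 1611. In WT-labelled cells they were 711, 270, 661, 994 and 1818 in the same order. The counts in the 4 genotype and interaction comparisons were 0 under each alternative run. Some small changes turned sign when 1 library was left out: Abcg1 ran between -1.34 and 0.32 in KO-labelled and between -1.90 and 0.46 in WT-labelled cells, Mylip between -0.17 and 0.09 and Srebf1 between -0.19 and 0.24 in KO-labelled cells, and Nr1h3 between -2.14 and 0.43 and Lpcat3 between -0.27 and 0.02 in WT-labelled cells. The KO minus WT difference of Lipa in untreated cells ran between -0.72 and 0.11. With median-ratio scaling Mylip had 0.26 in KO-labelled and 0.04 in WT-labelled cells, Lpcat3 0.05 and 0.15, and Srebf1 0.19 in WT-labelled cells. With quantile normalization Mylip had 0.13 in KO-labelled cells, and in WT-labelled cells Srebf1 had 0.08 and Lpcat3 0.04. The cause was not tested. With 2 libraries a group, a missing call does not show equal levels, and the depth is an estimate, which limits low values such as those of Cyp7b1 most.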

Other observations

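Apoe lies in a cluster with Apoc1 and Apoc2, which encode small apolipoproteins and were singled out after their values were seen. Apoc1 had 7.32 and 19.8 RPKM in KO-labelled cells with LPS and 27.7 and 42.8 RPKM in WT-labelled cells with LPS. Untreated, it had 17.5 and 70.4 RPKM in KO-labelled cells and 33.4 and 31.3 RPKM in WT-labelled cells. Apoc2 had 6.93 and 11.6 RPKM in KO-labelled cells with LPS and 47.7 and 20.8 RPKM in WT-labelled cells with LPS. Untreated, it had 20.9 and 59.0 RPKM in KO-labelled cells and 42.7 and 51.6 RPKM in WT-labelled cells. As for Apoe, the LPS libraries of KO-labelled cells lay below those of WT-labelled cells, and untreated KO B was the highest KO-labelled library. Apoc1 was the named locus most like Apoe over the 8 libraries (Pearson correlation 0.938, a description). The difference was not called for any of the 3 genes.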
